A study of Rattus norvegicus with 8 samples.

Results

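Expression of 38 genes of the cell cycle was examined in the liver of weanling rats, an organ that is still growing at that age. The genes were taken by name from a list of proliferation genes: 19 act mainly in G1 and at entry into S phase (G1/S), 16 in G2 and mitosis (G2/M), and 3 were put in neither phase. A named probe was present for 34 of the 38, and 28 were bright enough to be tested, among 10566 genes or unnamed probes tested in all. Each gene was represented by the probe with the brightest liver signal.

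The animals were male Sprague-Dawley rats aged 21 days, reared by their own mothers and exposed only through them, during gestation and nursing. Control dams received the corn oil vehicle. Dams of the other group, 0.5MAhR, received 0.5 mg/kg/day of a mixture in corn oil, which held methyl mercury, organochlorine pesticides and polychlorinated biphenyls (PCBs). They were also given agonists of the aryl hydrocarbon receptor (non-ortho-PCBs, chlorinated dioxins and furans), so that the dioxin toxic equivalents came to 6.3 ng/kg/day. Each array carried the pooled liver RNA of 2 pups, giving 4 Control and 4 0.5MAhR arrays of a study of 72; the others were not analysed here. Which litters the pups came from is not stated in the labels, and p-values therefore measure the spread between pools.

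On every array liver RNA was labelled with Cy5 and a common reference RNA, made from 14 rat cell lines, with Cy3. Values are log2 ratios of liver over reference, so 0 means equal signal and -1 means that the reference gave 2 times the liver signal. Dyes were not swapped, so a dye effect is part of each ratio, though it is shared by both groups. The arrays lay on 1 slide, and the first number of the array position divides them into side 1 (Control arrays 5 and 7, 0.5MAhR arrays 2 and 4) and side 2 (Control 6 and 8, 0.5MAhR 1 and 3). Over all genes tested, 56.8% differed between the sides at an adjusted p under 0.05 (limma), so side was a term in the fit and values within each side are given. Between 42.9% and 49.2% of the spots of an array were well above background in Cy5.

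A cell that commits to divide activates Cdk4 with D-type cyclins and Cdk2 with cyclin E, which releases E2F factors to switch on the genes of DNA replication. Cyclins A and B with Cdk1, the Aurora and Polo-like kinases and the anaphase-promoting complex then carry it through mitosis. Genes of the first wave are commonly controlled through E2F sites, and those of the second through the cell cycle genes homology region (CHR), often with CCAAT boxes, bound by complexes that repress them in resting cells. Rodent hepatocytes divide and become polyploid around weaning and later rest, whereas a cell line reference is rich in dividing cells.

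The RefSeq promoter table (build GRCr8) held 28 of the 38 genes among 27456. The 250 bases before each start were searched on both strands for TTGGCGC or TTCCCGC (E2F), TTTGAA or TTCGAA (CHR) and CCAAT, which may overlap the E2F letters. E2F letters stood in 6 of 12 G1/S promoters (50.0%) and 2 of 13 G2/M promoters (15.4%), against 5.32% of all promoters. CHR letters stood in 3 of 12 G1/S promoters (25%) and 9 of 13 G2/M promoters (69.2%), against 17.3% of all. CCAAT was found in 58.3% of the G1/S and 76.9% of the G2/M promoters, against 34.3% of all. A match describes the letters and shows no binding. Below are the windows of Mcm7, a subunit of the replicative helicase (chr12:22163179-22163428, minus strand), Ccnb2, a mitotic cyclin (chr8:79981659-79981908, minus strand), and Cdk1, the mitotic kinase (chr20:19265043-19265292, plus strand). They show the first kind of letters foremost, the second kind alone, and both, with E2F and CHR letters in capitals.
Mcm7: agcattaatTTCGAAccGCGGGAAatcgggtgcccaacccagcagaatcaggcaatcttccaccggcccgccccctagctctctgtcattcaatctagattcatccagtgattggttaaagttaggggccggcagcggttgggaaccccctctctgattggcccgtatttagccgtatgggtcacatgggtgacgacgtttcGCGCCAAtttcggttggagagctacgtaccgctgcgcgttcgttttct
Ccnb2: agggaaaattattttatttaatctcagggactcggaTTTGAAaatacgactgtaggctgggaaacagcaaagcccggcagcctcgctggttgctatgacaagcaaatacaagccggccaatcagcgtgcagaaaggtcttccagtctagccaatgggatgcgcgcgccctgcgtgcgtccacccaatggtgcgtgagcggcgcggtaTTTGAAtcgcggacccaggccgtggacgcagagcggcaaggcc
Cdk1: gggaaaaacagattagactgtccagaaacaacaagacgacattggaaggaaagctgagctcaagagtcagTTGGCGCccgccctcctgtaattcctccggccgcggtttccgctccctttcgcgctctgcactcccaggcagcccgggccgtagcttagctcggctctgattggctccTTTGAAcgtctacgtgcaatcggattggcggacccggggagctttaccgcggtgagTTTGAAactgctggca
The Mcm7 window holds 2 E2F matches and 1 CHR match, the Ccnb2 window 2 CHR matches and no E2F match, and the Cdk1 window 1 E2F match and 2 CHR matches. Each window also holds 3 CCAAT matches.

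Cell cycle transcripts were lower in control liver than in the cell line reference. The log2 ratio was below 0 for 26 of the 28 genes tested (92.9%), against 46.1% of all genes tested, and its median was -1.35 against 0.09. It was under -1 for 17 of the 28 (60.7%), against 13.1% of all genes. These ratios were not tested, since the reference is no sample of a group. Their size depends on the normalisation: with median centring in place of loess the medians were -2.37 for the G1/S and -2.67 for the G2/M genes, with all genes at -0.82. In bulk liver RNA, fewer dividing cells and less RNA per cell cannot be told apart. The 2 genes not below 0 were Tyms, thymidylate synthase, at 0.02 ± 0.23 (SD, n = 4 for this and the following values), and Cdkn1a, which encodes the CDK inhibitor p21. No G1/S gene, Tyms included, was above 0 with median centring, the scanner software's processed signals, the deposited log ratios, side 2 alone, or without Control array 5 or 7. On side 1 alone 2 G1/S genes were above 0, Tyms at 0.22 and Cdk2 at 0.01. Their side 2 means were -0.18 and -0.23.

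**Figure D1:**
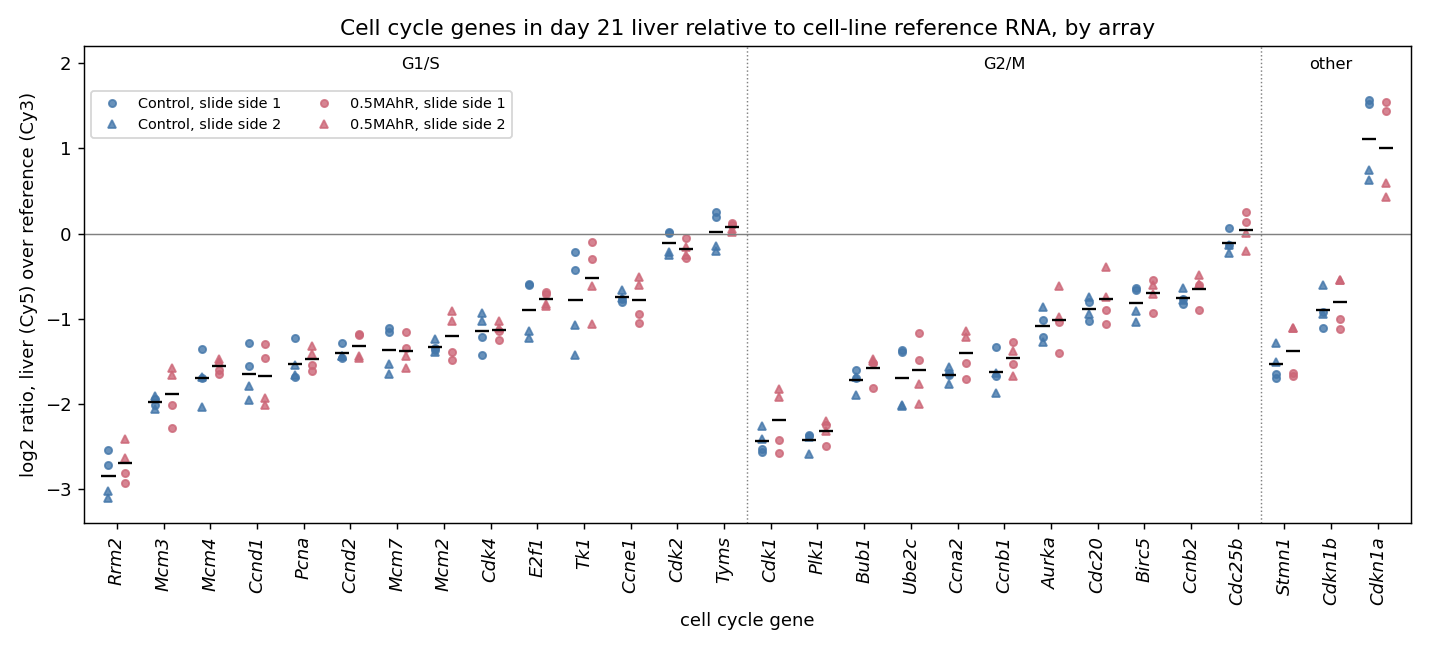
Log2 ratio of liver (Cy5) over cell-line reference (Cy3), on the y axis, for the 28 tested cell cycle genes on each of the 8 arrays, grouped by phase and ordered by the Control mean within a phase. Circles are arrays of slide side 1, triangles of side 2, and bars are group means of 4 arrays; 26 of 28 genes lie below 0 in Control, and the points of both groups overlap for every gene.

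Among the regulators of S phase entry, Ccnd1 and Ccnd2, the D-type cyclins, had Control ratios of -1.65 ± 0.29 and -1.41 ± 0.08. Their kinase Cdk4 stood at -1.15 ± 0.22 and the transcription factor E2f1 at -0.89 ± 0.34. Ccne1, cyclin E1, was at -0.75 ± 0.06 and its partner Cdk2 at -0.11 ± 0.14, so that kinase was close to the reference while the D-type cyclins were 2.65 to 3.13 times below it. Ccne2 and Cdc6, a loader of the replicative helicase, were not well above background in liver on any array. For Ccne2 the bound put the reference at least 1.01-fold over control liver. For Cdc6 the measured ratio of a dim probe put it 1.74-fold over control liver.

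Subunits of the replicative helicase gave ratios of -1.98 ± 0.07 (Mcm3), -1.69 ± 0.28 (Mcm4), -1.36 ± 0.27 (Mcm7) and -1.33 ± 0.06 (Mcm2). A second, dimmer Mcm3 probe, also well above background on all arrays, gave -1.10 ± 0.13, so the order of the subunits depends on the probe. Pcna, the sliding clamp of DNA polymerase, was at -1.53 ± 0.21. Mcm6 was not well above background in liver, with the reference at least 1.52-fold higher, and Mcm5 had no named probe. The genes of deoxynucleotide supply were the most spread. Rrm2, the small subunit of ribonucleotide reductase, had the lowest ratio of all 28 genes at -2.84 ± 0.26, a 7.17-fold higher signal in the reference, while Tk1, thymidine kinase, was at -0.79 ± 0.56 and Tyms near 0. Rrm1, the large subunit, was not well above background in liver (reference at least 1.08-fold higher).

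The G2/M genes had a median ratio of -1.63, against -1.35 for the G1/S genes. All 11 tested G2/M genes and 13 of 14 tested G1/S genes were below 0, and 7 and 9 of them, respectively, were under -1. Cdk1 stood at -2.44 ± 0.14 and Plk1, the Polo-like kinase, at -2.43 ± 0.11, which are 5.42-fold and 5.37-fold lower than the reference after loess normalisation. Ccna2, cyclin A2, was at -1.66 ± 0.08, Ccnb1, cyclin B1, at -1.63 ± 0.22 and Ccnb2 at -0.75 ± 0.08. Ccnb2 was dim in Control liver, with mean net signals of 25.1 in Cy5 and 271 in Cy3. Cdc25b, a phosphatase that activates Cdk1, lay nearest the reference at -0.11 ± 0.13. The spindle checkpoint kinase Bub1 was at -1.72 ± 0.13, the mitotic kinase Aurka at -1.09 ± 0.19 and Birc5, survivin, at -0.81 ± 0.19. Ube2c, the ubiquitin-conjugating enzyme of the anaphase-promoting complex, was at -1.70 ± 0.37 and its activator Cdc20 at -0.88 ± 0.13.

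Aurkb, the kinase of the chromosomal passenger complex, and Cdkn3, a CDK phosphatase, were not well above background in liver. The reference was at least 1.38-fold higher for Cdkn3, and 1.36-fold higher by the measured ratio of a dim probe for Aurkb. Bub1b, Mki67 (Ki-67) and Top2a (topoisomerase II alpha) had no named probe. All 34 genes with a probe were well above background in the reference channel on all 8 arrays, so the 6 dim genes were dim in the liver channel only. Fewer spots were well above background in Cy5 than in Cy3 on every array. Without a dye swap, low liver RNA and the channel cannot be told apart. The gap between the phases depended on the slide side: on side 1 alone the medians were -1.34 for G1/S and -1.38 for G2/M, and on side 2 alone -1.38 and -1.67.

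Of the 3 genes outside both phases, Stmn1 (stathmin, which destabilises microtubules) had a Control ratio of -1.53 ± 0.18 and Cdkn1b, the CDK inhibitor p27, of -0.90 ± 0.21. For Cdkn1a the probe used gave 1.56, 0.63, 1.51 and 0.75 on Control arrays 5 to 8, which is 1.11 ± 0.49 or 2.16-fold above the reference. The lower pair of values came from side 2, and the 0.5MAhR arrays showed the same separation, with 0.43, 1.54, 0.59 and 1.43 on arrays 1 to 4. A second, dimmer Cdkn1a probe gave -1.25 ± 0.61 in Control, below the reference, so both probes disagree on the side of 0.

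Whether maternal exposure to the mixture changed these transcripts in the offspring was asked next. Over all 10566 genes tested, limma called 5 at an adjusted p of 0.05 (0.0473%), and 660 (6.25%) were under 0.05 before adjustment. None of the 28 cell cycle genes passed: their adjusted p-values ran from 0.701 to 0.985, and 2 of 28 (7.14%) had an unadjusted p under 0.05, a share near the 6.25% of all genes. Without slide side in the fit 1 gene of all passed (0.00946%), no cell cycle gene had an unadjusted p under 0.05 (1.55% of all genes did), and their adjusted p-values were 1.00. Control and 0.5MAhR arrays overlapped for all 28, against 1.33% of all genes without overlap.

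The differences were small. They ran from -0.11 for Cdkn1a to 0.27 for Tk1 on the log2 scale, or 0.924-fold to 1.20-fold, and the 95% intervals of all 28 lay between -0.28 and 0.56, or 0.826-fold and 1.47-fold. The background offset of 50 makes these differences understate those of dim genes. On this scale, with slide side fitted, a doubling or a halving was outside the interval of all 28 genes. The same held for 10450 of all 10566 genes tested, so it is no trait of the cell cycle genes. With slide position as block the SEs were larger, such as 0.41 for Cdkn1a and 0.37 for Tk1. The difference was above 0 for 23 of 28 genes (82.1%), against 47.9% of all genes (24 of 28 and 58.8% with median centring in place of loess), with a median of 0.11, or 1.08-fold, against -0.01 over all genes. By phase, 10 of 14 G1/S genes (median 0.07) and 11 of 11 G2/M genes (median 0.11) were above 0. Tyms and Ccnb2 are among them and passed the brightness filter through the 0.5MAhR group alone. Over genes well above background on all 8 arrays the counts were 21 of 26, with 9 of 13 G1/S and 10 of 10 G2/M genes. Genes of one programme vary together, so these counts are not counts of independent results and were not tested.

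**Figure D2:**
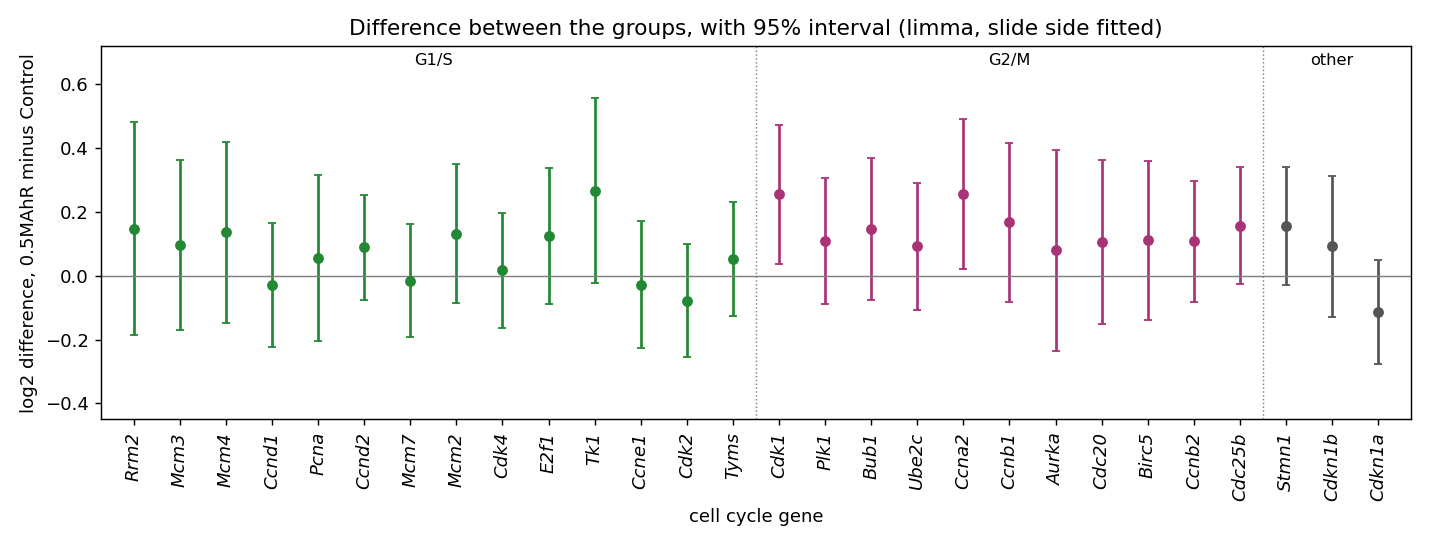
Difference between 0.5MAhR and Control on the log2 scale, on the y axis, for each of the 28 tested cell cycle genes, with slide side fitted; bars are 95% intervals from limma. Of the 28 intervals, 26 contain 0, and those of Cdk1 and Ccna2 do not before adjustment over all genes.

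Cdk1 and Ccna2, which together form the kinase of late S and G2 phase, were the 2 genes with an unadjusted p under 0.05. The Cdk1 ratio was -2.56, -2.26, -2.53 and -2.40 on Control arrays 5 to 8 and -1.91, -2.42, -1.82 and -2.58 on 0.5MAhR arrays 1 to 4. The 0.5MAhR arrays of side 2, 1 and 3, were the highest of all 8, and those of side 1 lay among or below the Control arrays. The difference was 0.26 (SE 0.10, n = 4 and 4), with an unadjusted p of 0.027 and an adjusted p of 0.701 in limma.

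For Ccna2 the Control arrays read -1.66, -1.57, -1.63 and -1.77, and the 0.5MAhR arrays -1.22, -1.52, -1.15 and -1.71. Arrays 1 and 3 of 0.5MAhR were again the highest, and array 4 lay inside the Control range. The difference was 0.26 (SE 0.10), with an unadjusted p of 0.035 and an adjusted p of 0.739 in limma. A second Ccna2 probe, also well above background on all arrays, gave a difference of 0.05.

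Among the other mitotic genes the differences were 0.17 for Ccnb1 (SE 0.11), 0.16 for Cdc25b (SE 0.08), 0.15 for Bub1 (SE 0.10) and 0.11 for Ccnb2 (SE 0.08). Ccnb2 was well above background on 2 Control and 4 0.5MAhR arrays, so it entered the test through the 0.5MAhR group. Plk1 and Birc5 each gave 0.11, Cdc20 0.11, Ube2c 0.09 and Aurka 0.08. The smallest adjusted p of these 9 in limma was 0.868. Plk1 showed how close the groups were, at -2.37, -2.38, -2.37 and -2.58 on the Control arrays and -2.32, -2.25, -2.20 and -2.49 on the 0.5MAhR arrays. Its lowest array was Control 8, and without that array 3 of 4 0.5MAhR arrays were above and 1 was below the Control values.

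Tk1, whose product salvages thymidine, gave the largest difference at 0.27 (SE 0.13, adjusted p = 0.836 in limma). Its arrays read -0.43, -1.43, -0.21 and -1.07 in Control and -1.06, -0.10, -0.61 and -0.30 in 0.5MAhR. High and low arrays followed the slide side in both groups, with side 1 the higher. Rrm2 read -2.71, -3.10, -2.54 and -3.02 in Control and -2.63, -2.81, -2.41 and -2.93 in 0.5MAhR, a difference of 0.15 (SE 0.15). The groups interleave, with the lowest values on Control arrays 6 and 8. Tyms differed by 0.05; it was well above background on 2 Control and 3 0.5MAhR arrays, and so entered the test through the 0.5MAhR group alone.

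In the helicase and clamp group the differences were 0.14 for Mcm4, 0.13 for Mcm2, 0.10 for Mcm3, 0.06 for Pcna and -0.01 for Mcm7, with SEs of 0.08 to 0.13. The second Mcm3 probe gave 0.03. Of the regulators of S phase entry, E2f1 differed by 0.12, Ccnd2 by 0.09, Cdk4 by 0.02, Ccnd1 and Ccne1 by -0.03 each, and Cdk2 by -0.08. Pcna, a common proliferation marker, read -1.68, -1.54, -1.22 and -1.66 in Control and -1.31, -1.62, -1.41 and -1.54 in 0.5MAhR, so all 0.5MAhR arrays lay inside the Control range. Ccnd1 read -1.29, -1.79, -1.56 and -1.95 in Control and -2.01, -1.30, -1.93 and -1.46 in 0.5MAhR, and again overlapped almost fully, with the low values on side 2.

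Cdkn1a, p21, had the lowest difference at -0.11 (SE 0.07, adjusted p = 0.887 in limma), and its second probe gave -0.38. Cdkn1b, p27, differed by 0.09 (SE 0.10) and Stmn1 by 0.16 (SE 0.08). The inhibitors thus gave one difference below and one above 0, and neither passed the test.

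The slide sides did not give the same picture. Each side also held its own pools of pups, so an effect of side and variation between pools cannot be told apart. Within side 1, with 2 arrays of each group, 11 of 28 cell cycle genes were higher in 0.5MAhR, against 54.9% of all genes. Their median difference was -0.048. Within side 2, 24 of 28 were higher, against 44.4% of all genes, and the median of the 28 was 0.24. The G1/S genes had medians of -0.11 and 0.22 on sides 1 and 2, and the G2/M genes 0.03 and 0.27. The difference was larger on side 2 for 23 of 28 genes (82.1%), against 42% of all genes. Only 8 of the 28 were higher on both sides, 16 were lower on side 1 and higher on side 2, 3 the reverse, and Cdkn1a was lower on both.

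The difference between the sides was tested as an interaction of group and side. An unadjusted p under 0.05 was found in limma for 8 of 28 genes (28.6%), against 5.02% of all genes. None passed after adjustment, as for all genes. Genes of one programme vary together, so the 8 are not independent results and their share was not tested. Tyms, which entered the test through the 0.5MAhR group alone, is among the 8. Rrm2 differed the most between the sides, with -0.24 on side 1 and 0.54 on side 2 (interaction fitted in limma, adjusted p = 0.812). E2f1 gave -0.10 and 0.35 (limma, adjusted p = 0.910). Cdk1 gave 0.05 and 0.46, Ccna2 0.03 and 0.48 and Tk1 0.12 and 0.41. The group difference of these 3, which had the largest differences, was thus larger on side 2. Cdc25b was an exception among the mitotic genes, with 0.23 on side 1 and 0.08 on side 2.

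**Figure D3:**
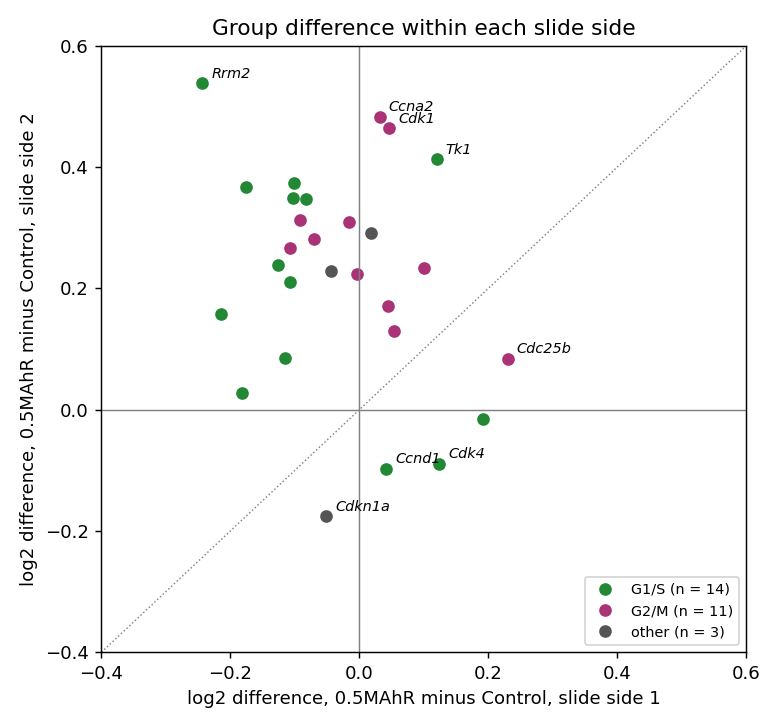
Difference between 0.5MAhR and Control within slide side 1 (x axis) against that within side 2 (y axis), both on the log2 scale, for the 28 tested cell cycle genes; each side holds 2 arrays of each group. Points above the dotted line of equality, 23 of 28, had the larger difference on side 2, and 16 genes lie in the upper left field of opposite signs.

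**Figure D4:**
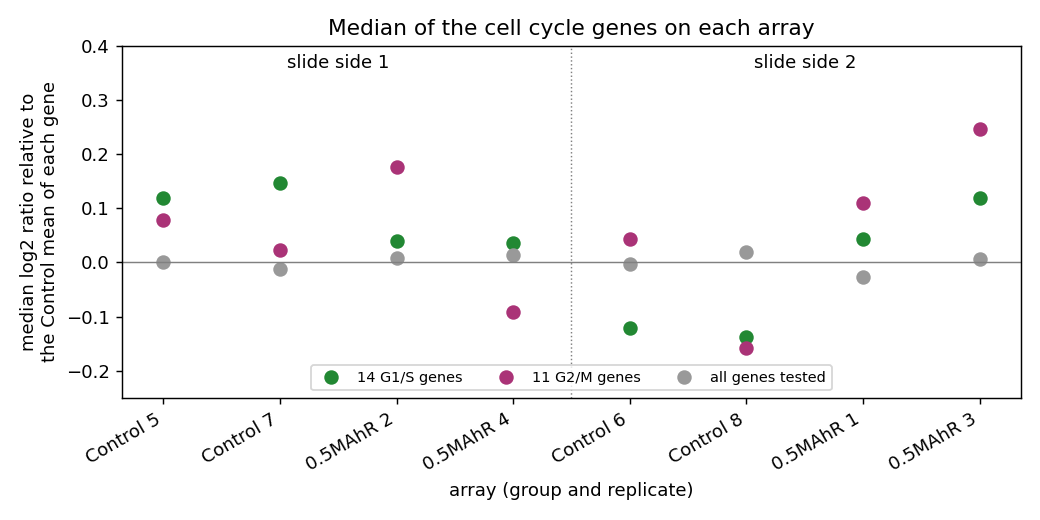
Median over the 14 G1/S genes, the 11 G2/M genes and all genes tested (y axis, log2 ratio minus the Control mean of each gene) on each of the 8 arrays (x axis), by slide side. The G2/M medians run from -0.16 on Control array 8 to 0.25 on 0.5MAhR array 3, and those of both groups overlap.

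The medians per array varied within both groups. Over the 11 G2/M genes, set relative to the Control mean of each gene, the arrays stood at 0.08, 0.04, 0.02 and -0.16 in Control and 0.11, 0.18, 0.25 and -0.09 in 0.5MAhR. Control array 8 was the lowest and 0.5MAhR array 3 the highest, and 0.5MAhR array 4 lay under 3 of the 4 Control arrays. Over the G1/S genes the values were 0.12, -0.12, 0.15 and -0.14 in Control and 0.04, 0.04, 0.12 and 0.04 in 0.5MAhR, so the Control arrays of side 1 were the highest. The median of all 28 genes was 0.06 without Control array 8, 0.06 without 0.5MAhR array 3 and 0.17 without 0.5MAhR array 4.

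The sides also differed in level. Of the 28 cell cycle genes, 14 (50%) differed between sides at an adjusted p under 0.05 in limma, a share below the 56.8% of all genes. Of these, 8 were lower and 6 higher on side 2, from -0.91 for Cdkn1a to 0.42 for Cdk1. The G2/M genes were split, with Ube2c at -0.60 and Cdk1 at 0.42 for side 2 minus side 1.

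Differences of other genes with low ratios to the reference were set beside these. Of 1405 genes with a mean ratio below -1 over the 8 arrays, 17 were cell cycle genes of the list. Over the 1405 genes the median difference was -0.00071 in all, 0.02 on side 1 and -0.02 on side 2. For the 17 it was 0.11, -0.0036 and 0.27. Of the 299 genes below -2, 60.5% were higher in 0.5MAhR (median 0.027), and of the 1106 genes between -2 and -1, 46.8% (median -0.0074). Whether the ratio level bears on the difference was not tested. The reference channel alone gave differences of -0.04 to 0.08 for the 28 genes, and none passed the test (smallest adjusted p = 0.999 in limma; 1 gene of all passed, 0.00946%). The liver channel alone put 24 of 28 above 0.

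Markers of liver cell types were measured beside these genes, and none of them passed the test. All 10 hepatocyte markers were bright, with a median Control ratio of 7.64, and 9 of the 10 were lower in 0.5MAhR (median -0.11), with medians of -0.02 on side 1 and -0.27 on side 2. Their summed Cy5 signal, quantile-normalised across arrays as for all sums given here, ran from 1113220 to 1160910 in Control and from 1082060 to 1158170 in 0.5MAhR. Erythroid markers, of interest since young liver can hold blood-forming cells, were tested for 5 of 10, of which 4 were higher (median 0.16). Their sums ran from 43898.6 to 71080.8 and from 65934 to 75597.1, their side medians were 0.41 and -0.12, and the progenitor genes Gata1, Klf1 and Epor were not well above background. Of 10 Kupffer cell markers 9 were higher (median 0.14; side medians 0.17 and 0.02), with sums of 12358.4 to 14212.3 and 12292 to 16207.8. Of 10 lymphocyte markers 4 were tested, 2 of them higher, with sums of 891.057 to 1962.33 and 996.867 to 2508.83, and of the T cell genes Cd3e, Cd8a and Cd4 were not well above background, while Cd3g was tested (difference -0.10). Among 4 of 10 neutrophil, 5 of 8 cholangiocyte, 5 of 9 endothelial and 7 of 9 stellate markers tested, 1, 2, 3 and 4 were higher. The part of these cell types in the cell cycle values was not tested.

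A wider list of 121 cell cycle genes beyond the 38 had 64 genes tested, and none passed the test. Of the 64, 49 were higher in 0.5MAhR (76.6%), with a median of 0.05 and side medians of -0.04 and 0.14. Genes of origin licensing and replication were higher in 15 of 17 (median 0.05), and the 2 with the smallest p were the clamp loader subunits Rfc3 at 0.12 and Rfc2 at 0.09. Genes of the spindle, kinetochore and cytokinesis were higher in 19 of 22 (median 0.07). Kif20a, a kinesin of cytokinesis, gave 0.25 (unadjusted p = 0.0276, adjusted p = 0.709 in limma), with 0.09 on side 1 and 0.40 on side 2, and the kinetochore gene Spc25 gave 0.20.

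The E2F, RB and DREAM regulators, which act upstream, were higher in 5 of 10 (median 0.01), with Lin54 at 0.07 and E2f3 at 0.08. Checkpoint genes, p53 targets and inhibitors were higher in 10 of 15 (median 0.04). Btg1, an antiproliferative gene, was the one gene of the 64 whose groups did not overlap, a share near the 1.33% of all genes. It read 1.58, 1.60, 1.85 and 2.14 in Control and 1.31, 1.34, 1.20 and 1.14 in 0.5MAhR, a difference of -0.55 (SE 0.12, adjusted p = 0.309 in limma), with -0.47 on side 1 and -0.62 on side 2. Ccng1, cyclin G1, a p53 target, differed by 0.21 (adjusted p = 0.674 in limma), with 0.18 and 0.24 on the sides. Against the reference, 49 of the 64 were below 0 in Control, with a median of -0.95.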

How the data were processed

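The authors read the spots with Feature Extraction software from Agilent, version 11.0.1.1 according to the file headers. From the deposited files, the median foreground and background intensity of each channel and the marks for outlying and well-above-background spots were used. The deposited value table holds log2 ratios of Cy5 over Cy3. Its r with loess-normalised scanner ratios was 0.997 to 0.998 on the arrays, which settled scale and direction, while its centring (column medians of -0.0389 to -0.0326) stays unknown. It was used as an alternative. Background correction was by normexp (offset 50) in limma 3.58.1 under R 4.3.3, arrays were loess-normalised with control and outlying spots at weight 0, outlying spots were dropped and spots of a probe averaged. Of 30367 probes, 18005 received a symbol by matching accessions to the RefSeq gene table (GRCr8, names only). Testing required a probe to be well above background in Cy5 (over 50% of its spots) on 3 or more of the 4 arrays of a group. This left 11405 probes and, with the brightest per gene, 10566 genes. Fits on 1 channel alone and the marker sums used normexp (offset 50) and quantile normalisation, which gives all arrays the same distribution. Likeness of the sums between arrays is therefore partly built in. Bounds for dim genes used Aquantile after loess and a floor at the lowest signal well above background, and dye bias can enter them. The floor did not alter the values of Cdc6 and Aurkb, which are ratios of Cy5 signals not well above background, with the offset of 50 included.

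Groups came from the sample labels. Log2 ratios were fitted with lmFit and eBayes on group and slide side (two-sided, Benjamini-Hochberg over all genes tested, threshold 0.05), and all adjusted p-values are limma's. Precision is limited by the number of arrays. The fit was checked on simulated data. The list, its phases, the markers and the fit with slide side were chosen with earlier results of these data known. Members named singly were, in each role, those with the highest and lowest difference and ratio, with Pcna, Ccnd1, Cdkn1a, Cdkn1b, Mki67 and Top2a always named; Ccnd2, Cdk4 and Ccnb1 were added to complete their groups. Of the wider list, the 2 genes with the smallest p in each role were named. The interaction, the split by mean ratio and the values relative to all genes were added after the data were seen.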

Additional observations from a re-analysis of the deposited data

Results flagged for a closer look

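Values of 4 arrays in a group were examined for an array far from the other 3, in 62 groups, and chance alone marks about 1 in 20 groups. Plk1 was marked in Control, where array 8 read -2.58 and the next lowest -2.38, with the highest at -2.37; the gap was 0.930 of the range. Bub1 was marked in 0.5MAhR, where array 4 read -1.81 and the next lowest -1.51, with the highest at -1.47, a gap of 0.877 of the range. The median of the G1/S genes was marked on 0.5MAhR array 3, at 0.12 against 0.04 for the nearest and 0.04 for the lowest array, a gap of 0.902 of the range.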

How the results depend on the processing

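No cell cycle gene of the list passed the threshold under any alternative run (smallest adjusted p 0.559 in limma, without 0.5MAhR array 4), while calls over all genes ran from 0 (with slide position as block, with the scanner software's processed signals, and on side 2 alone) through 1 (slide side not fitted, and without Control array 5, or 0.5MAhR array 3 or 4), 2 (on side 1 alone and without Control array 6 or 8, or 0.5MAhR array 1), 3 (median centring, the filter on all 8 arrays, and a robust trended prior), 7 (mean of probes), 8 (without Control array 7) and 11 (without 0.5MAhR array 2) to 14 (Cy5 alone). No paired analysis was possible by replicate number, because the groups share none; the block on slide position, which sets 1 Control beside 1 0.5MAhR array, called 0 of the 28 genes. The median difference of the 28 genes was -0.048 on side 1 and 0.24 on side 2 alone, that of the G1/S genes -0.11 and 0.22, and that of the G2/M genes 0.27 on side 2. Leaving out 1 array at a time gave 0.06 to 0.17 for the 28 genes, 0.03 to 0.12 for G1/S and 0.07 to 0.19 for G2/M, with 21 to 25 of 28 genes above 0. The Control ratio median of the G1/S genes was -2.37 with median centring (all genes -0.82), -1.69 with processed signals and -1.02 with no filter on dim probes; that of the G2/M genes was -2.67, -2.04 and -1.09, and -1.38 on side 1 alone. Leaving out 1 array gave -1.39 to -1.31 for G1/S and -1.66 to -1.55 for G2/M. The no-filter medians include the 6 dim genes, whose Control ratios ran from -0.80 for Cdc6 to -0.13 for Rrm1. Why these medians differ from those with the filter was not tested. Of the 25 genes named by rule, 8 kept the sign of their difference in every setting. Signal over background left 6 of 34 genes unmeasured in liver.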
